A study of Mus musculus with 4 samples.

Results

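The hedgehog response genes described here are *Gli1*, *Gli2*, *Gli3*, *Ptch1*, *Hhip* and *Smo*. They were chosen by name as parts and outputs of 1 pathway, and their UMIs (unique molecular identifiers, each marking 1 captured transcript) were read by intestine and by class of mesenchymal stromal cell (MSC). All 6 were found among the 28692 gene rows of the libraries. Hedgehog ligands are secreted by the gut epithelium and are received by the mesenchyme beneath it. The ligand binds PTCH1, which otherwise holds the transducer SMO inactive. Active SMO lets the GLI transcription factors switch on target genes, among them *Gli1*, *Ptch1* and *Hhip*, and the latter pair restrain the signal again.

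The cells came from untreated C57BL6/Nrj female mice of 8 to 10 weeks, with 3 mice in each of 2 experiments, and how the animals were divided between libraries is not given in the labels. From each intestine 2 droplet libraries were made of the lamina propria, the stroma that carries the epithelium, after the outer muscle had been stripped. Sorted cells were alive, carried integrin β1 (Itgb1+) and lacked CD45, Ter119, CD31, BP3, EpCAM and L1CAM. Smooth muscle cells (SMC) here are thus those that the lamina propria preparation kept, and cells that the sort excluded are not represented. Replicate number in the labels is not said to mark a litter, a day or a chip, and p-values measure only the spread between these libraries, which may be technical.

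Total depth was 14341443 to 52269372 UMIs per library. After filtering, 1828 and 14350 cells of small intestine and 2399 and 12108 cells of colon remained for replicates 1 and 2. The replicate 1 libraries were deeper per cell (median 6965 and 8810 UMIs against 2734.5 and 3878), were counted with Cell Ranger 3.0.2 instead of 3.1.0, and the kit (3′ or 5′) of each library is not given in the labels. Libraries shared 0 to 69 barcodes pairwise. Cells were gated by marker genes into PDGFRαhi fibroblasts (FB), CD81+ FB, SMC, pericytes and remaining FB, the last being FB that reached no other gate. Of the markers that took no part in a gate, 4 of 4 for PDGFRαhi FB, 3 of 4 for CD81+ FB, 4 of 4 for SMC and 3 of 3 for pericytes were highest on average in their own class. The exception was *Fgf7*, which was highest in PDGFRαhi FB. Pericytes were few, with 48 and 27 cells in the small intestinal libraries and 64 and 57 in those of colon. The 3 markers of interstitial cells of Cajal (*Kit*, *Ano1* and *Etv1*) summed to 116 to 236 CPM in PDGFRαhi FB and 224 to 374 CPM in pericytes, with 1 of them at 0 in each pericyte sum, against 8.71 to 62.7 CPM in the other classes. Their part in the results for these 2 classes was not tested. Endothelial cells that had passed the CD31- sort (348, 1, 240 and 24 cells) served as a class in which hedgehog targets should be low. Values below are CPM, the UMIs of a gene divided by all UMIs of the class in that library and scaled to a common total. They are always given for the first and second library of small intestine and then of colon. UMI levels depend on the captured end of a transcript, and levels of different genes are not compared.

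By GENCODE vM21 (GRCm38) the genes lie on chromosome 10 (*Gli1*, 127329882 to 127341974, minus strand), chromosome 1 (*Gli2*, 118834132 to 119053619, minus strand), chromosome 13 (*Gli3*, 15463235 to 15730026, plus strand, and *Ptch1*, 63508328 to 63573598, minus strand), chromosome 8 (*Hhip*, 79965851 to 80058006, minus strand) and chromosome 6 (*Smo*, 29735503 to 29761365, plus strand). All are protein coding. *Gli1* overlaps *Arhgap9* on the opposite strand, and none of the other 5 genes overlaps a gene listed in the files. Promoters from RefSeq (GRCm38.p6, 250 bases before to 50 after the start) were at hand for *Gli2*, *Gli3*, *Ptch1*, *Hhip* and *Smo*. Those of *Hhip* and *Ptch1* are shown because *Hhip* had the greatest class difference and *Ptch1* was called in all 5 classes. Both are written 5′ to 3′ on the minus strand, with CG dinucleotides in capitals. The windows of *Ptch1* and *Gli3* lie inside the gene spans given above and do not cover the outer starts of these genes.
Hhip, chr8:80057959-80058258: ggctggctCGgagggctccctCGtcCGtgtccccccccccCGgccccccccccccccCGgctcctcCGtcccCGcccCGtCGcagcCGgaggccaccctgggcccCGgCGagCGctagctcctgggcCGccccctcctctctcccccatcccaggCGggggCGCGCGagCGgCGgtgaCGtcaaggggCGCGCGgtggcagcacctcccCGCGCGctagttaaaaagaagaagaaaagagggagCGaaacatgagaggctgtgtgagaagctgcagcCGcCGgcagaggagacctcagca
Ptch1, chr13:63565686-63565985: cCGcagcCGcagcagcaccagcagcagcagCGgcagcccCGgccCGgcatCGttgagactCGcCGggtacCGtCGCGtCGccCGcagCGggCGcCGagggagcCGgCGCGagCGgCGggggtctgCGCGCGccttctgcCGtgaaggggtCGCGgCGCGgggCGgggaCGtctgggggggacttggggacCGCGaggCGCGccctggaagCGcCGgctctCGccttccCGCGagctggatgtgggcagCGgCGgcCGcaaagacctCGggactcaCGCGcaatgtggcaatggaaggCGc
The *Hhip* window held 30 CG dinucleotides and the *Ptch1* window 47, against a median of 7 over the 32851 promoters of the table. The GLI consensus GACCACCCA was searched on both strands (TGGGTGGTC on the other) and was found in 0 of these 5 promoters and in 83 of 32851 (0.253%). These letters are therefore not in the 5 windows, which says nothing about sites elsewhere.

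Ligand transcripts were almost absent from the sorted MSC. *Shh* had 0 UMIs in the MSC classes of all 4 libraries, *Ihh* had 0, 0, 1 and 4 UMIs and *Dhh* had 1, 2, 2 and 5 UMIs. *Shh* and *Ihh* are the ligands of the gut epithelium, which the sort removed, and *Dhh* is known from endothelium and Schwann cells.

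**Figure D1:**
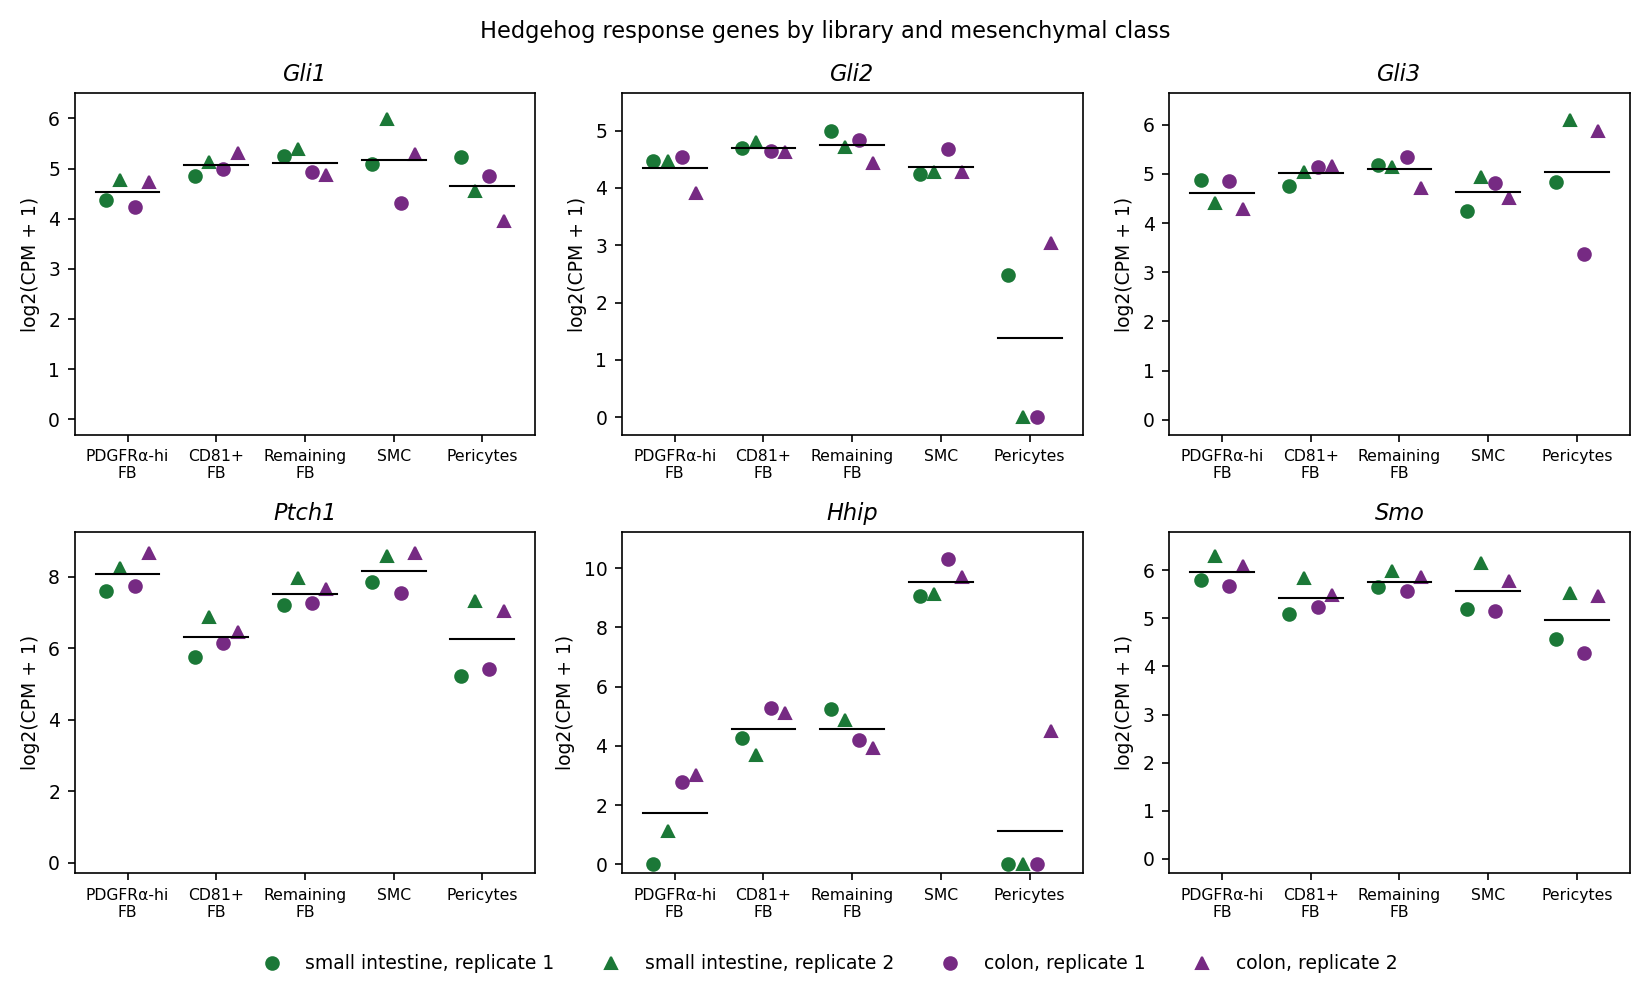
Level of each hedgehog response gene, as log2(CPM + 1), in 5 MSC classes; each point is 1 library (green, small intestine; purple, colon; circles, replicate 1; triangles, replicate 2) and the line is the mean of 4 libraries. *Hhip* stands above 500 CPM in SMC and at or below 37.5 CPM elsewhere, *Gli1* in PDGFRαhi FB (17.8 to 26.3 CPM) is below CD81+ FB and remaining FB, and *Gli2* is near 0 in pericytes.

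*Hhip*, which encodes a membrane protein that captures hedgehog ligand, was the gene with the sharpest class pattern. In SMC it stood at 535, 553, 1259 and 825 CPM. The next class within each library reached 36.9, 28.2, 37.5 and 33.4 CPM, and SMC did not overlap any other class. Against the mean of the other 4 classes, with library as a block, *Hhip* was higher in SMC by 6.22 ± 0.39 on the log2 scale (SE, edgeR quasi-likelihood test, adjusted p = 5.3e-08). Of the 6 genes, 2 were called higher in SMC (*Hhip* and *Ptch1*) and 0 lower, where 16.2% of 11808 genes were called higher and 13.4% lower. *Hhip* was highest in SMC in 4 of 4 libraries, for which an exact permutation test (one-sided, classes shuffled inside each library, 30 tests over 6 genes and 5 classes) gave its smallest possible p of 0.0016 (adjusted p = 0.024). With any 1 library left out this test cannot pass the threshold.

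The transcript was seen in a large share of SMC. With every cell thinned to 2000 UMIs, an *Hhip* UMI was seen in 36.2% of small intestinal SMC of replicate 1 (95% exact binomial interval 22.7 to 51.5%, 47 cells) and in 40.4% of replicate 2 (27.6 to 54.2%, 57 cells). In colon the share was 77.6% (71.9 to 82.6%, 250 cells) and 68.6% (64.9 to 72.1%, 668 cells). Shares in colonic SMC were above those in small intestinal SMC, with intervals that do not overlap. Thinning left out 7, 59, 12 and 103 shallower SMC, and without it the shares were 57.4%, 54.3%, 87.0% and 78.0%. In endothelial cells of the replicate 1 libraries the thinned share was 0.647% and 0.885%, at median depths of 4502 and 5093.5 UMIs per cell against 6292.5 and 8253.5 in SMC. The 21 endothelial cells of colon replicate 2 had 0 with an *Hhip* UMI, which by a floor of 3 counts, used here for counts of 0 in place of the exact interval, allows a share of up to 14.3%. Intervals cover counting error only.

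The FB classes held little *Hhip*, at levels that differed by class. CD81+ FB had 18.1, 12.1, 37.5 and 33.4 CPM and remaining FB had 36.9, 28.2, 17.4 and 14.2 CPM. PDGFRαhi FB had 0, 1.16, 5.94 and 7.15 CPM, from 0, 3, 38 and 75 UMIs. PDGFRαhi FB were the lowest of the FB classes in each library, with a log2 fold change of -3.11 ± 1.06 against the mean of the other classes (edgeR, adjusted p = 0.0437). This call was lost with any 1 library left out (adjusted p = 0.0681 and 0.0857 without small intestine replicates 1 and 2, 0.0525 and 1 without colon replicates 1 and 2), and the fitted value depends on the prior count because 1 library is at 0 UMIs. Pericytes had 0, 0, 0 and 3 *Hhip* UMIs. *Lmod1* and *Myocd*, SMC genes outside the gate, gave a measure of SMC transcripts in the other classes. There were 0.705, 0.62, 2.06 and 0.639 *Hhip* UMIs per UMI of this pair in SMC, but more in CD81+ FB, where 67, 136, 67 and 265 *Hhip* UMIs stood beside 14, 55, 1 and 24 UMIs of the pair. In remaining FB the ratio was 2.39, 1.65, 1.34 and 0.806, above that of SMC in all libraries but colon replicate 1. In PDGFRαhi FB it was 0, 0.231, 2.53 and 2.14, below that of SMC in both small intestinal libraries and above it in both colonic ones.

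**Figure D2:**
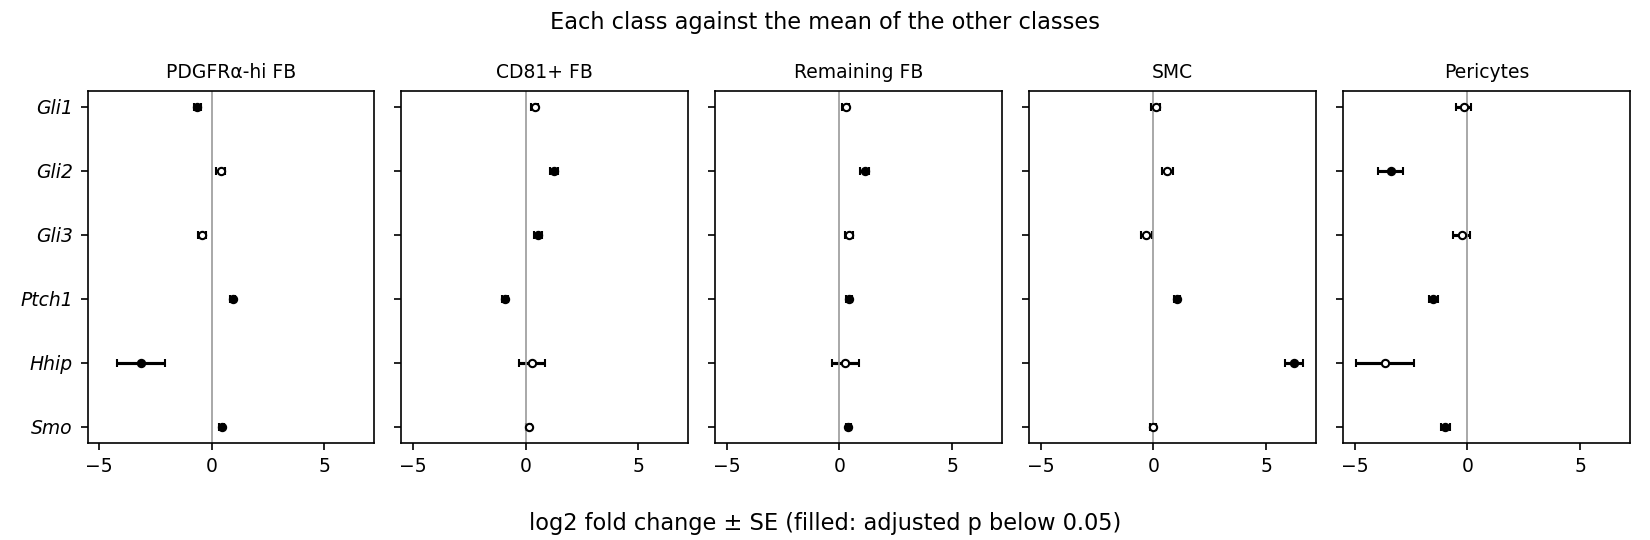
Difference between each MSC class and the mean of the other 4 classes, as log2 fold change with its SE from edgeR over 4 libraries; filled points have an adjusted p below 0.05. *Hhip* in SMC (6.22) lies far to the right, *Ptch1* is higher in PDGFRαhi FB and SMC and lower in CD81+ FB and pericytes, and *Gli2* is lower in pericytes.

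*Ptch1*, the receptor and itself a target of the pathway, separated the FB classes. It stood at 194, 304, 214 and 406 CPM in PDGFRαhi FB and at 230, 380, 185 and 407 CPM in SMC. Remaining FB had 146, 249, 152 and 201 CPM, CD81+ FB had 53.4, 115, 70.0 and 87.3 CPM, and pericytes had 36.5, 157, 41.8 and 130 CPM from 8, 7, 18 and 18 UMIs. Replicate 2 exceeded replicate 1 in each class of both intestines, so that classes overlap over the 4 libraries. Within each library CD81+ FB and pericytes were below the other 3 classes, and remaining FB were below PDGFRαhi FB and SMC. Relative to remaining FB of the same library, PDGFRαhi FB had 1.33, 1.22, 1.41 and 2.02 times the level, SMC 1.58, 1.52, 1.22 and 2.02 times, and CD81+ FB 0.367, 0.462, 0.46 and 0.435 times. In edgeR *Ptch1* was higher in SMC (log2 fold change 1.05 ± 0.13, adjusted p = 6e-06) and in PDGFRαhi FB (0.93 ± 0.13, adjusted p = 1.7e-05). It was lower in CD81+ FB (-0.91 ± 0.15, adjusted p = 7e-05) and in pericytes (-1.51 ± 0.20, adjusted p = 1.4e-05). The higher level in remaining FB (0.44 ± 0.13, adjusted p = 0.0234) was not called without small intestine replicate 1, small intestine replicate 2 or colon replicate 1 (adjusted p = 0.124, 0.0648 and 0.191). SMC were the highest class in 3 of 4 libraries and PDGFRαhi FB in 1. Their means of 300.4 ± 109 and 279 ± 96.7 CPM (SD, n = 4) carry the replicate shift named above. The thinned share of cells with a *Ptch1* UMI was 28.5% to 51.5% in PDGFRαhi FB and 29.8% to 51.8% in SMC, against 2.91% and 3.54% in endothelial cells of the replicate 1 libraries. Of the 21 endothelial cells of colon replicate 2, 14.3% had a *Ptch1* UMI (3.05 to 36.3%).

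Of the 6 genes, 2 were called higher in PDGFRαhi FB (*Ptch1* and *Smo*; 15.9% of all genes) and 2 lower (*Gli1* and *Hhip*; 11.5%). In CD81+ FB 2 were called higher (*Gli2* and *Gli3*; 19.0%) and 1 lower (*Ptch1*; 11.4%). Remaining FB had 3 called higher (*Gli2*, *Ptch1* and *Smo*; 14.0%) and 0 lower (5.50%). Pericytes had 0 higher (10.9%) and 3 lower (*Gli2*, *Ptch1* and *Smo*; 12.1%). Over all genes DESeq2 gave a smaller share of higher calls in remaining FB (1451 higher and 1084 lower, against 1659 and 650 in edgeR) and in CD81+ FB (2077 and 1898, against 2245 and 1345), and a larger share in pericytes (1621 and 1129, against 1286 and 1433). Called members of the 6 went both ways in PDGFRαhi FB and CD81+ FB and one way in the other classes.

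Of the co-receptors, which help present ligand to PTCH1, *Gas1* and *Boc* ran opposite to *Ptch1* in PDGFRαhi FB and CD81+ FB. In SMC both were higher, as *Ptch1* was. *Gas1* stood at 254, 509, 441 and 739 CPM in SMC, at 77.9, 131, 86.8 and 211 CPM in CD81+ FB, and at 2.64, 3.48, 0.781 and 4.48 CPM in PDGFRαhi FB. It was higher in SMC (log2 fold change 4.33 ± 0.30, edgeR adjusted p = 9.8e-08) and CD81+ FB (2.13 ± 0.31, adjusted p = 0.000112) and lower in PDGFRαhi FB (-5.12 ± 0.51, adjusted p = 3.9e-06). *Boc* showed the same 3 calls with smaller changes (1.22 ± 0.23, 1.47 ± 0.19 and -0.80 ± 0.26) and was also lower in pericytes (-1.83 ± 0.54), a call lost without small intestine replicate 1, small intestine replicate 2 or colon replicate 2 (adjusted p = 0.0668, 0.0534 and 0.0501). In PDGFRαhi FB the *Boc* call was lost without small intestine replicate 2, colon replicate 1 or colon replicate 2 (adjusted p = 0.0584, 0.634 and 0.0565). *Cdon* was at or below 6.06 CPM in all classes and was not tested.

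*Smo*, the transducer, varied within a narrow range. PDGFRαhi FB had 54.9, 77.3, 49.8 and 67.2 CPM, remaining FB 49.2, 62.3, 46.4 and 57.1 CPM, and SMC 35.9, 70.1, 34.7 and 54.0 CPM. CD81+ FB had 33.2, 56.7, 37.0 and 43.5 CPM and pericytes 22.8, 45.0, 18.6 and 43.4 CPM. PDGFRαhi FB were highest in each of the 4 libraries (exact permutation test, one-sided, p = 0.0016, adjusted p = 0.024), by 1.07 to 1.24 times over remaining FB of the same library. In edgeR *Smo* was higher in PDGFRαhi FB (log2 fold change 0.45 ± 0.10, adjusted p = 0.00206) and in remaining FB (0.40 ± 0.10, adjusted p = 0.00673) and lower in pericytes (-0.98 ± 0.20, adjusted p = 0.00282, from 2 to 8 UMIs). The remaining FB and pericyte calls were lost without colon replicate 1 (adjusted p = 0.138 and 0.1).

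*Gli1*, the transcription factor that serves as a readout of active signalling, was found in all MSC classes. It stood at 28.0, 34.0, 30.8 and 38.5 CPM in CD81+ FB, at 37.3, 40.7, 29.7 and 28.3 CPM in remaining FB and at 19.8, 26.3, 17.8 and 25.6 CPM in PDGFRαhi FB. SMC had 32.9, 62.7, 19.0 and 37.9 CPM and pericytes 36.5, 22.5, 27.8 and 14.5 CPM from 1 to 12 UMIs. PDGFRαhi FB, which had high *Ptch1*, were below CD81+ FB and remaining FB in each library. Against the mean of the other classes *Gli1* was lower there (log2 fold change -0.63 ± 0.17, edgeR adjusted p = 0.0079), a call lost without small intestine replicate 1 or colon replicate 1 (adjusted p = 0.079 and 0.0627). It was called in no other class, with an edgeR adjusted p of 0.0566 in CD81+ FB. The means of CD81+ FB, remaining FB and SMC were 32.8 ± 4.49, 34.0 ± 5.99 and 38.1 ± 18.3 CPM (SD, n = 4), and their order differed between libraries. At 2000 UMIs per cell a *Gli1* UMI was seen in 3.2% to 15.8% of cells of the FB classes and SMC. Endothelial cells of the replicate 1 libraries showed 0.324% (1 of 309 cells) and 0 of 226 cells, which by the floor of 3 counts allows a share of up to 1.33%. In colon replicate 2 it was 2 of 21 endothelial cells (9.52%, interval 1.17 to 30.4%), so that the *Gli1* shares of that library, 4.98% to 7.33%, are not above this background.

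**Figure D3:**
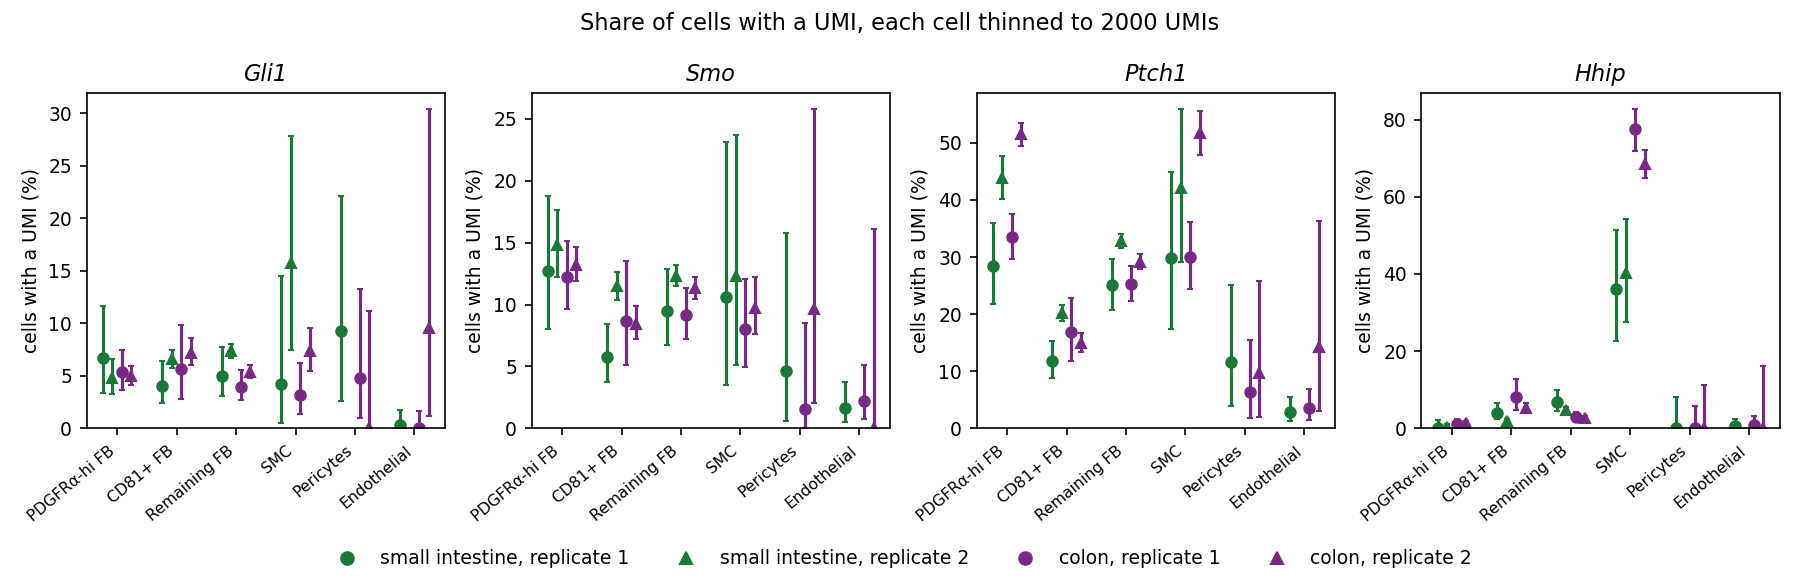
Share of cells with a UMI of *Gli1*, *Smo*, *Ptch1* and *Hhip* after each cell was thinned to 2000 UMIs, by class and library, with 95% exact binomial intervals; classes with fewer than 20 cells are left out. *Hhip* was seen in 36.2% to 77.6% of SMC and *Ptch1* in more than 28% of PDGFRαhi FB and SMC, while endothelial cells of the replicate 1 libraries stayed at or below 3.54% for all 4 genes.

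*Gli2*, the main activator of target genes, stood at 25.1, 26.9, 24.1 and 23.6 CPM in CD81+ FB and at 30.9, 25.2, 27.5 and 20.6 CPM in remaining FB. PDGFRαhi FB had 21.1, 21.3, 22.2 and 14.0 CPM and SMC 17.9, 18.4, 24.5 and 18.3 CPM. Pericytes had 1, 0, 0 and 1 UMIs. It was higher in CD81+ FB (log2 fold change 1.27 ± 0.18, edgeR adjusted p = 2.3e-05) and remaining FB (1.11 ± 0.18, adjusted p = 0.000235) and lower in pericytes (adjusted p = 8.6e-05), and these 3 calls were kept with any 1 library left out. Since the pericytes enter the mean of the other classes, the FB differences include their near absence. *Gli3*, which acts largely as a repressor, was called in CD81+ FB alone, where it was higher (26.2, 31.8, 34.2 and 35.0 CPM, log2 fold change 0.54 ± 0.18, adjusted p = 0.0268), and the call was lost without small intestine replicate 2, colon replicate 1 or colon replicate 2 (adjusted p = 0.0636, 0.0867 and 0.0555). Remaining FB had 35.5, 34.1, 39.8 and 25.2 CPM of *Gli3*, PDGFRαhi FB 28.4, 20.1, 28.1 and 18.5 CPM and SMC 17.9, 29.5, 27.3 and 21.7 CPM, in overlapping ranges. Pericytes had 27.4, 67.5, 9.28 and 57.9 CPM of *Gli3* from 3 to 8 UMIs, in contrast to their 0 or 1 UMIs of *Gli2*.

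Of 34 other pathway genes that were listed by role, 28 passed the low-count filter of the class comparison. In PDGFRαhi FB 9 were called higher and 7 lower, where 15.9% and 11.5% of all genes were. CD81+ FB had 5 higher and 6 lower (19.0% and 11.4% of all genes) and remaining FB 5 and 2 (14.0% and 5.50%). SMC had 8 and 1 (16.2% and 13.4%) and pericytes 5 and 5 (10.9% and 12.1%). The median log2 fold change of the list was 0.11, -0.09, 0.03, 0.07 and -0.33 in this order, beside 0.05, 0.02, 0.05, 0.01 and -0.13 over all genes tested. Among targets known in gut mesenchyme, *Foxl1*, a forkhead factor of subepithelial FB, was higher in PDGFRαhi FB (3.15 ± 0.23) and SMC (2.84 ± 0.28) and lower in CD81+ FB (-5.46 ± 0.57). *Foxf2* had the same 3 directions (1.79 ± 0.21, 1.64 ± 0.23 and -1.52 ± 0.26) and was lower in pericytes (-2.19 ± 0.45). *Bmp4*, a growth factor of the subepithelial niche, was higher in PDGFRαhi FB (1.22 ± 0.28) and remaining FB (1.34 ± 0.28) and lower in pericytes (-2.66 ± 0.44). *Foxf1* was higher in pericytes (1.09 ± 0.18), which were low in *Ptch1* and *Gli2*, and lower in CD81+ FB and remaining FB (-1.10 ± 0.19 and -0.67 ± 0.18). *Ccnd1* was higher in PDGFRαhi FB (2.13 ± 0.21) and pericytes (1.45 ± 0.31) and lower in SMC (-2.27 ± 0.34) and CD81+ FB (-1.38 ± 0.26). Of the transducers, *Gpr161*, a ciliary receptor that restrains the pathway, was higher in SMC (1.56 ± 0.27) and lower in PDGFRαhi FB and CD81+ FB (-1.43 ± 0.27 and -1.36 ± 0.28). *Sufu*, which holds GLI proteins back, was higher in SMC (1.07 ± 0.23) and lower in pericytes (-1.60 ± 0.51). *Scube1*, of the ligand release group, was higher in remaining FB (1.81 ± 0.33) and lower in pericytes (-3.17 ± 0.81), and *Hhat* and *Disp1* were higher in PDGFRαhi FB (1.92 ± 0.30 and 1.06 ± 0.33). These are log2 fold changes against the mean of the other classes with edgeR adjusted p from 8.3e-09 to 0.0278. Of the called genes, 12 of 16, 9 of 11, 5 of 7, 7 of 9 and 4 of 10 stayed called whichever 1 library was left out in PDGFRαhi FB, CD81+ FB, remaining FB, SMC and pericytes. Among those named, the calls of *Disp1* (small intestine replicate 2 and colon replicate 1, adjusted p = 0.109 and 0.217), of *Foxf1* in remaining FB (colon replicate 1, 0.101), and in pericytes of *Ccnd1* and *Foxf2* (colon replicate 1, 0.142 and 0.0969) were lost without the library given. The same held in pericytes for *Scube1* (small intestine replicate 1 and colon replicate 1, 0.0634 and 0.117) and *Sufu* (small intestine replicate 1 and both colon libraries, 0.117, 0.13 and 0.0563).

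**Figure D4:**
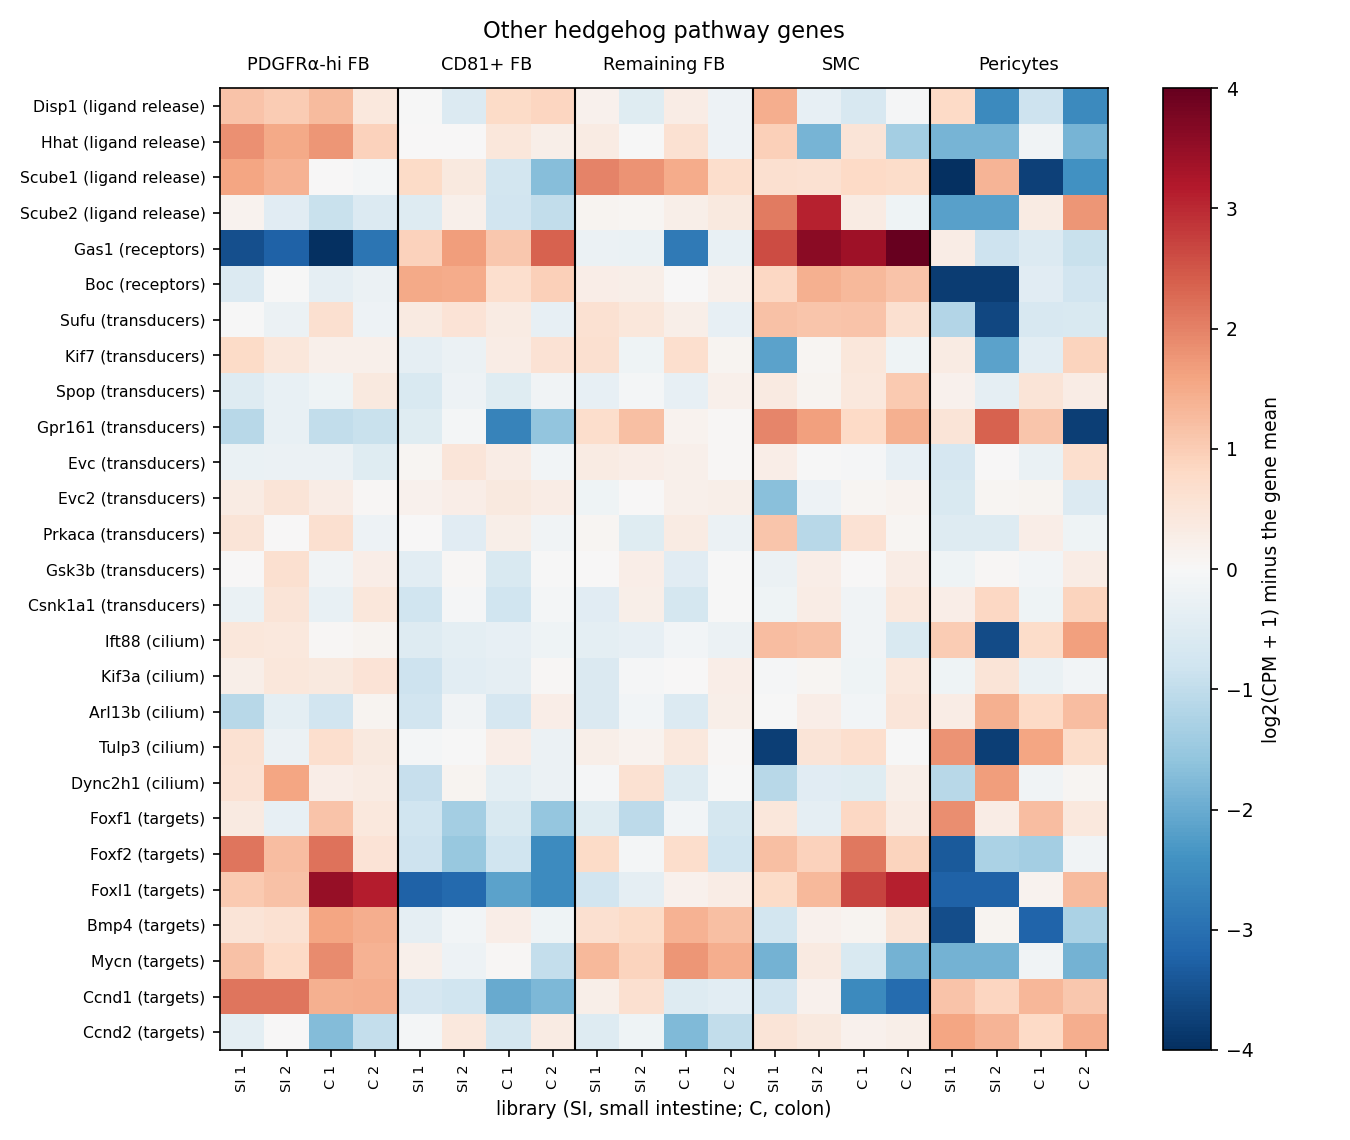
Levels of 27 of the 28 tested other pathway genes in the 20 library-by-class sums, as log2(CPM + 1) minus the mean of the gene (red, above; blue, below); columns are the 4 libraries of each class. *Gas1* is below its mean in all 4 PDGFRαhi FB columns, *Foxl1* is above its mean there and in SMC, and pericyte columns scatter with their 27 to 64 cells.

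Whether hedgehog response genes differ between the intestines was asked within each class. None of the 6 was called by edgeR in any class at an adjusted p under 0.05 in the fit without a replicate block. An unadjusted p under 0.05 was found for 1 gene, *Hhip*, in each of PDGFRαhi FB, CD81+ FB, remaining FB and SMC, and DESeq2 also called 0. Without the low-count filter *Hhip* in PDGFRαhi FB was called (adjusted p = 0.0446). Over all genes tested, 1.69%, 0.470%, 0.341% and 0.258% were called in these 4 classes, and 0% in pericytes, where only *Gli3* and *Ptch1* of the 6 passed the low-count filter. In simulated counts the fit without a block recovered 26% of 2-fold and 18% of 0.5-fold changes in PDGFRαhi FB, so it would miss most of them. With the replicate number as a block, *Hhip* was called in PDGFRαhi FB, CD81+ FB, remaining FB and SMC. The genes called rose from 194, 54, 44 and 24 to 2764, 1116, 2209 and 590. The labels do not say what that number shares.

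The *Hhip* values of the 2 intestines did not overlap in any of these 4 classes, but they ran in different directions. Those of *Gli1* in remaining FB and of *Gli2* and *Gli3* in CD81+ FB did not overlap either. With 2 libraries per intestine, the share of all genes without overlap was not counted. In SMC the colon had 2.35 times the small intestinal level among libraries counted with Cell Ranger 3.0.2 and 1.49 times among those counted with 3.1.0, and the pooled log2 fold change was 0.97 ± 0.33 (edgeR, adjusted p = 0.489). In CD81+ FB the colon had 2.08 and 2.77 times the level (pooled 1.16 ± 0.32, adjusted p = 0.294). In PDGFRαhi FB the colon was at least 2.99-fold higher within the first version, against a floor of 3 UMIs in the small intestinal library with 0, and 6.17 times (95% counting interval 2.03 to 30.6, 75 against 3 UMIs) within the second (pooled 3.33 ± 0.87, adjusted p = 0.171). In remaining FB the colon had 0.472 and 0.505 times the small intestinal level (pooled -1.03 ± 0.24, adjusted p = 0.222). Cell Ranger version and replicate number go together and cannot be told apart, and each version holds 1 library of each intestine. Whether the kit goes with the replicate number or with the intestine is not given in the labels, and its part in these differences was not tested.

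**Figure D5:**
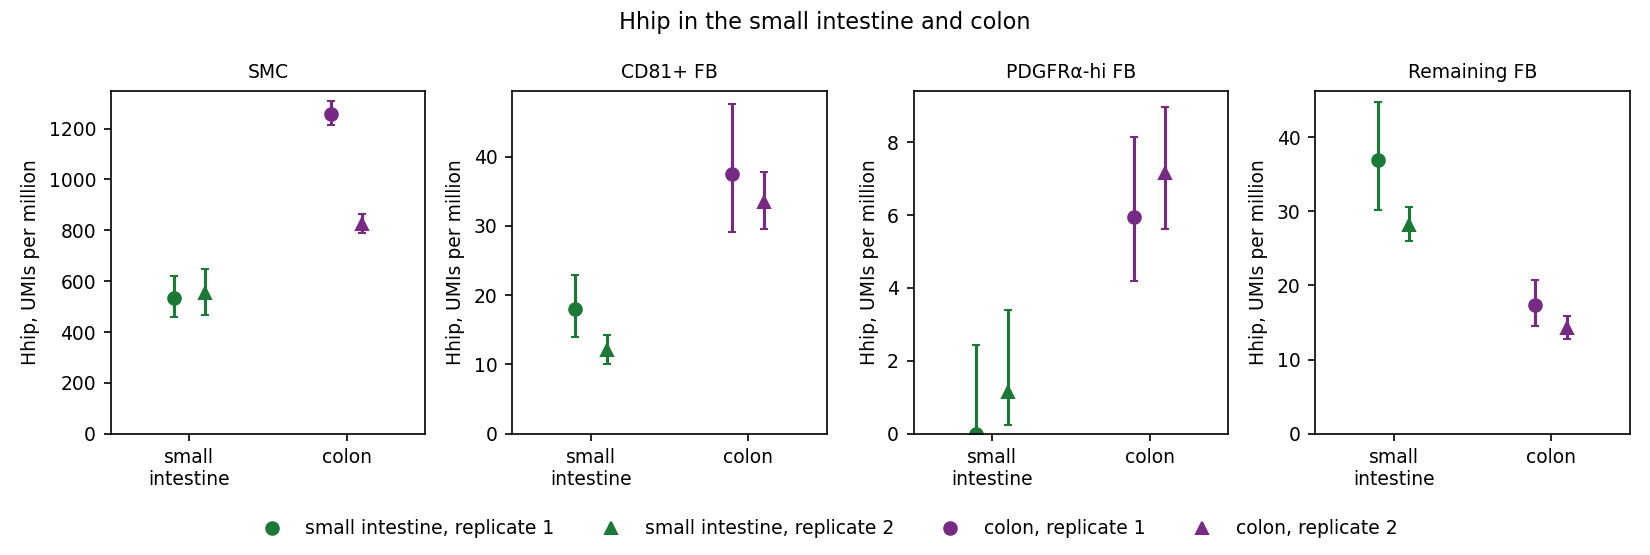
*Hhip* level in each library by intestine for SMC, CD81+ FB, PDGFRαhi FB and remaining FB, in CPM of the class with 95% exact Poisson intervals; each panel has its own axis. Both colon libraries are above both small intestinal libraries in SMC, CD81+ FB and PDGFRαhi FB and below them in remaining FB.

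The difference between these tissue effects was itself tested with a class-by-tissue term and library as a block. The colon effect on *Hhip* was greater in PDGFRαhi FB than in remaining FB by 4.31 ± 0.58 on the log2 scale (edgeR, adjusted p = 1.3e-06). It was called whichever 1 library was left out and by DESeq2 (4.36, adjusted p = 0.00169), but not with doublet calls kept (2.57, adjusted p = 0.0614), and without small intestine replicate 2 the value was 9.98, the remaining small intestinal library having 0 UMIs in PDGFRαhi FB. For *Ptch1* the same difference was 0.55 ± 0.17 (adjusted p = 0.025), with a colon level of 1.10 and 1.34 times the small intestinal one in PDGFRαhi FB and of 1.05 and 0.806 times in remaining FB. The *Ptch1* call was lost by DESeq2 (adjusted p = 0.249) and without small intestine replicate 1, small intestine replicate 2 or colon replicate 2 (adjusted p = 0.127, 0.379 and 0.644). It was also lost with the best-class gate and with doublet calls kept (adjusted p = 0.127 and 0.0578). These 2 of 6 genes were called where 11.6% of all genes were. Between PDGFRαhi FB and SMC the effects differed for 0 of 6 genes (2 at an unadjusted p under 0.05, *Hhip* and *Ptch1*), where 3.73% of all genes were called. DESeq2 called 0 there too, whereas 1 gene, *Hhip*, was called without colon replicate 1 and without the low-count filter. No other pair of classes was tested. Dissociation genes (*Fos*, *Jun*, *Junb*, *Egr1*, *Hspa1a* and *Hspa1b*) had a higher summed level in colon, though 0 of the 6 were called between the intestines in any class. Their summed level in PDGFRαhi FB was 10943 and 15722 CPM in small intestine and 28467 and 32631 CPM in colon. In remaining FB it was 17066 and 22304 CPM against 25909 and 38161 CPM, so that it was higher in colon in both classes. Of the 6 dissociation genes, 3 (*Jun*, *Junb* and *Egr1*) were called for a greater colon effect in PDGFRαhi FB than in remaining FB. For all genes the share called in either direction was 11.6%. The part of the dissociation genes in the result was not tested.

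Among the other pathway genes 1 of 29 tested was called between the intestines in PDGFRαhi FB, where 1.69% of all genes were. The *Foxl1* level there was 18.5 and 20.1 CPM in the small intestinal libraries against 105 and 82.0 CPM in the colonic ones, a log2 fold change of 2.40 ± 0.27 (edgeR adjusted p = 0.0299). The call was lost without either small intestinal library, fits that leave 1 library in that group. The log2 fold change there was 2.33 without replicate 1 and 2.47 without replicate 2. In SMC it had 14.9 and 22.1 CPM against 60.1 and 80.0 CPM, which was not called (1.97 ± 0.45, adjusted p = 0.204). No other listed gene was called in CD81+ FB, remaining FB, SMC or pericytes. For the difference of the colon effect between PDGFRαhi FB and remaining FB, 6 of 30 were called as greater (among them *Foxf1*, *Foxl1*, *Bmp4*, *Spop* and *Sufu*) and 1 as smaller (*Scube1*), where 11.6% of all genes were called. That of *Foxl1* was 1.56 ± 0.26 (edgeR adjusted p = 4e-05), which was lost without small intestine replicate 2 (adjusted p = 0.227) and with the best-class gate (adjusted p = 0.0823). None of these 7 was called in every fit that left out 1 library.

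Remaining FB hold several FB types of the study, and their cells were divided by a UMI of *Fgfr2*, *Igfbp5* or *Thy1* as a description. *Ptch1* was higher in cells with an *Fgfr2* UMI than in those without in 4 of 4 libraries (154 against 125, 319 against 210, 159 against 142 and 234 against 189 CPM). It was lower in cells with an *Igfbp5* UMI in 4 of 4 libraries (median fold 0.822) and in cells with a *Thy1* UMI in 3 of the 3 libraries with 20 such cells (0.782). *Gli1* differed by less than 1.06-fold with *Fgfr2* and was lower with *Thy1* in 3 of 3 (median fold 0.646). *Hhip* had 37.8 and 25.5 CPM in small intestinal cells with *Fgfr2* and 34.8 and 29.7 CPM in those without. The colonic counterparts were 12.5 and 8.71 CPM with *Fgfr2* and 25.4 and 16.3 CPM without. *Hhip* was lower in colon than in the small intestinal library of the same replicate number on both sides of this division. Cells with a marker UMI were deeper (for *Fgfr2*, medians of 7818, 2830, 9795.5 and 4496 UMIs against 4226, 2542, 7758 and 3814).

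Within classes, cells with a *Gli1* UMI had more *Ptch1*. Of the 14 class-and-library pairs with at least 20 cells on each side, *Ptch1* was higher in 14 (median fold 1.18, range 1.11 to 1.77). For example, PDGFRαhi FB with a *Gli1* UMI had 308, 336, 279 and 461 CPM of *Ptch1*, and those without had 174, 301, 198 and 399 CPM. *Smo* was higher in 8 of 14 (median fold 1.02), *Gli2* in 10 (1.08), *Gli3* in 6 (0.974) and *Hhip* in 10 (1.09). The cells of a pair share a library and cells with a *Gli1* UMI had higher median depth, so that these are descriptions without a test.

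Over the 20 library-by-class sums the 6 genes were alike to differing degrees. Pearson's r of log2(CPM + 1) ran from -0.17 (*Gli1* and *Gli3*) to 0.83 (*Ptch1* and *Smo*), where the sums share libraries and depth and no p is given. By the same measure, among 10319 genes with a mean of at least 5 CPM, *Sntg2* (r = 0.92), *Kcnma1* (0.92) and *Nptx2* (0.91) were most like *Hhip*. *Hint1* (0.89), *Syne1* (0.88) and *Stox2* (0.88) were most like *Ptch1*, and *Pmepa1* (0.95), *Nfic* (0.94) and again *Stox2* (0.90) were most like *Smo*. *Npr2* (0.95) and *Ccdc91* (0.93) were among the 3 genes most like *Gli2*. *Gli1* (*Plxna2*, *Fam21* and *Fbxw7*, 0.78 to 0.74) and *Gli3* (*Spata1*, *Pofut1* and *Zfp335*, 0.81 to 0.77) had no gene at 0.85 or above.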

How the data were processed

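The authors deposited UMI counts by gene and barcode without normalization, made with Cell Ranger on mm10, version 3.0.2 for replicate 1 and 3.1.0 for replicate 2 per the file headers. The submitters' processing notes also name Seurat 3, whose output was not used here. Kept barcodes had 500 or more genes, 1000 or more UMIs and no more than 10% of UMIs from mitochondrial genes, and scrublet (scanpy 1.11.5, Python 3.11.15, expected rate 0.8% per 1000 cells) removed 6, 913, 32 and 580 doublets (0.327%, 5.98%, 1.32% and 4.57%), the libraries in the order of the report. A cell entered the class whose gate markers, as mean log2(1 + UMIs per 10000), passed a threshold set on these scores (1.25 for PDGFRαhi FB, 1.5 for CD81+ FB and pericytes, 1.75 for SMC) by most, with a margin of 0.25 over the next class. Remaining FB reached no class and had a mean of at least 2 over collagen and matrix genes. Other cells and 245, 1688, 151 and 1009 ungated cells were left out. Classes were rebuilt from markers and may differ from those of the study.

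Counts were summed per library and class. Each class was compared with the mean of the others in edgeR 4.0.16 (R 4.3.3; filterByExpr, TMM, robust quasi-likelihood fit, library as a block), and colon with small intestine per class without a block. Calls required a Benjamini-Hochberg adjusted p under 0.05 over all genes tested. Gate markers were left out of counts of genes. DESeq2 1.42.0, another scaling, no filter, other gates, cells with at least 1000 genes, kept doublets and left-out libraries were alternatives, and the class-by-tissue and rank alternatives were added after the data had been seen. The fits were tested on simulated counts. Changes of 2-fold and 0.5-fold were recovered in 88% and 70% for a class difference in SMC. For colon against small intestine in PDGFRαhi FB these shares were 26% and 18%. For the difference of tissue effects, PDGFRαhi FB minus remaining FB, they were 4% and 2%. At 4-fold and 0.25-fold the shares were 100% and 100%, 98% and 98%, and 74% and 64%. False calls were 5.79%, 5.51% and 7.69% of calls. The genes and lists were chosen with earlier results of these data known. Named by rule were the 6 genes, listed pathway genes that were called or at 0 UMIs, and the 3 genes most like each of the 6. Of the called pathway genes those described, and Cdon, were chosen after their values were seen. Gene IDs matched GENCODE vM21 for 28416 of 28692. Values of some items that the rule would name are not reported here.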

Additional observations from a re-analysis of the deposited data

Results flagged for a closer look

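The colon effect on *Hhip* differed between PDGFRαhi FB and remaining FB by 4.31 on the log2 scale in the test of the difference itself, and that on *Ptch1* by 0.55. The *Hhip* difference was 2.57 and not called with doublet calls kept, and the *Ptch1* difference was not called by DESeq2, with the best-class gate, with doublet calls kept or in 3 of the 4 fits that left out 1 library. The cause was not tested for either gene.

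Of the 30 combinations of gene and class, each with 4 libraries, 3 had 1 library apart from the others by the gap divided by the range, and chance gives about 1 in 20. *Gli2* in PDGFRαhi FB was at 14.0 CPM in colon replicate 2 and at 21.1 to 22.2 CPM in the others (gap over range 0.873). *Gli2* in SMC was at 24.5 CPM in colon replicate 1 and at 17.9 to 18.4 CPM in the others, which rest on 5 to 43 UMIs (0.922). *Hhip* in pericytes had 3 UMIs in colon replicate 2 and 0 in the others (1).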

How the results depend on the processing

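Over the 30 combinations of gene and class, 15 class differences were called, and between 15 and 17 under the other scaling, filter, test, gates, cell filter and doublet treatment. Without 1 library the count was 10 to 14. Of the called differences, that of *Hhip* in PDGFRαhi FB was also lost without the low-count filter (adjusted p = 0.0785) and in cells with at least 1000 genes (-1.26, adjusted p = 1). The 15 values that were not called changed sign in 18 of 165 refits. The rank test gave 2 calls under other gates and 0 without any 1 library, since 3 libraries cannot pass the threshold over 30 tests. For the class-by-tissue term 2 of 12 values were called, with 3 without the low-count filter, 1 by DESeq2, 1 with the best-class gate, 0 with doublet calls kept, and 1 to 4 without 1 library. Over all genes 1472 were called for PDGFRαhi FB against remaining FB, 792 by DESeq2 and 689 to 1298 without 1 library, and 421 for PDGFRαhi FB against SMC, 744 without the filter and 245 to 419 without 1 library. These alternatives of the rank and class-by-tissue tests were chosen after seeing the data. The *Hhip* level in SMC (793 CPM) ran from 758 to 822 CPM over the gates, and its share of cells from 53.3% to 63.8% over the thinning depths (55.7% at 2000 UMIs) and was 69.2% without thinning.

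Between the intestines 0 of the 6 genes were called in any class, 1 without a low-count filter (*Hhip* in PDGFRαhi FB, adjusted p = 0.0446) and 4 with the replicate number as a block. The replicate block called *Hhip* in PDGFRαhi FB (3.34, adjusted p = 8.9e-06), CD81+ FB (1.23, adjusted p = 0.00591), remaining FB (-1.02, adjusted p = 0.0012) and SMC (0.94, adjusted p = 0.000913), and raised the genes called from 194, 54, 44 and 24 to 2764, 1116, 2209 and 590. Deviations of same-numbered libraries correlated (r = 0.76, 0.72, 0.80, 0.49 and 0.23 in PDGFRαhi FB, CD81+ FB, remaining FB, SMC and pericytes), but the labels do not say what a number shares and there are 2 pairs. DESeq2 called 613, 275, 458 and 118 genes, and leaving out 1 library gave 0 to 617, 26 to 150, 0 to 93 and 5 to 124. Without the filter 598, 473, 334 and 111 genes were called, kept doublets gave 29 in CD81+ FB, and the stricter gate gave 71 in remaining FB and 39 in SMC. In pericytes 0 became 17 without the filter, 8 by DESeq2, 24 in cells with at least 1000 genes and 9 to 28 without 1 library. For class differences, genes called without 1 library fell to as few as 1948 of 3238 in PDGFRαhi FB, 958 of 2309 in remaining FB, 2047 of 3502 in SMC and 1591 of 2719 in pericytes. The 22 values of genes other than *Hhip* changed sign in 31 of 256 refits, and *Hhip* kept its direction in all refits of its 4 values. Pericyte and small intestinal SMC values are limited by 27 to 116 cells.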
